A study of Mus musculus with 8 samples.

Results

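The nuclear genes for the subunits of the 5 oxidative phosphorylation complexes were examined in RNA-seq of Med23+/+ and Med23-/- immature oligodendrocytes (iOLs). Members were chosen by gene symbol (Ndufa, Ndufb, Ndufc, Ndufs and Ndufv for complex I without the Ndufaf assembly factors, the 4 Sdh genes for complex II, Uqcr and Cyc1 for complex III, Cox4 to Cox8 for complex IV, Atp5 for complex V). This gave 86 of the 24346 genes listed, and 79 of them reached a mean of 1 FPKM and were tested. FPKM is the number of fragments mapped to a gene, scaled for transcript length and library size. The rule used no measured value. The lowest tested member was Atp5s, with a mean of 5.11 FPKM over the 8 libraries, and the highest member left untested was Cox7a1, with 0.800 FPKM.

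The comparison addressed what loss of Med23, a subunit of the Mediator coactivator complex, does to gene expression while oligodendrocyte precursor cells (OPCs) differentiate. OPCs came from mouse brains at postnatal day 7 and were isolated by immunopanning, that is, by binding to dishes coated with an antibody to CD140a (PDGFRA) after endothelial cells and microglia had been depleted. Proliferation was kept up in Sato medium by the growth factors NT-3 (1 ng/mL) and PDGF-AA (10 ng/mL). Differentiation then ran for 1 day in CNTF (10 ng/mL) and the thyroid hormone T3 (15 nM), in both genotypes alike. According to the study's methods, the Med23-/- cells carry floxed Med23 alleles removed by Olig1-cre, so that the deletion is limited to cells in which this recombinase has acted. The labels give the groups only as wild type and knockout. The study took its Med23+/+ OPCs from control mice. It describes the controls of the knockout as littermates with floxed Med23 alleles (Med23fl/fl). That genotype names no Olig1-cre, so the groups also differ in carrying cre, whose part in any difference was not tested. The strain, sex and number of animals behind each library are not given in the sources used here. Each genotype had 4 libraries, and nothing in the labels says that they came from separate cultures or animals, so the p-values measure the spread between these samples, which may be technical.

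Oxidative phosphorylation is the last stage of respiration, in the inner mitochondrial membrane. Complexes I and II take electrons from NADH and succinate, complexes III and IV pass them through cytochrome c to oxygen, and all but complex II pump protons, whose return through complex V (ATP synthase) drives the making of ATP. The nuclear genome encodes most of the subunits, and differentiating oligodendrocytes are known for a high demand for energy and for lipid synthesis. The subunits that mitochondrial DNA encodes are not analysed here.

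Some facts of the whole series bear on the subunit genes. Med23 itself ran from 12.2 to 12.7 FPKM in the Med23+/+ libraries and from 7.93 to 8.49 FPKM in the Med23-/- libraries, in the direction of the labels. All 6 marker genes of committed and immature oligodendrocytes and all 6 tested myelin genes fell, with median log2 fold changes of -1.51 and -1.97, and their summed levels ran from 1642 to 1812 FPKM against 432 to 901 FPKM and from 662 to 800 FPKM against 153 to 304 FPKM. Of 10 neuron markers 9 rose, and the sum ran from 216 to 235 FPKM in Med23+/+ and from 313 to 410 FPKM in Med23-/- libraries. Of 6 OPC markers 2 rose (Pdgfra and Cspg4) and 1 fell (Sox10), and the sum ran from 1522 to 1876 FPKM against 1744 to 2228 FPKM. Of 8 astrocyte markers 3 fell (S100b, Gfap and Aqp4) and 1 rose (Slc1a2). The sum over the 8 ran from 219 to 275 FPKM against 111 to 165 FPKM. S100b alone had a mean of 125 FPKM in Med23+/+ and 17.5 FPKM in Med23-/- libraries. Aldh1l1, Slc1a3, Gja1 and Aldoc did not pass the test. None of 8 microglia markers reached a mean of 1 FPKM. Of 6 endothelial markers only Kdr did. The 6 summed to 0.509 to 1.19 FPKM against 1.17 to 2.97 FPKM, and Kdr rose. Of 6 pericyte and fibroblast markers 2 did and neither passed the test, with a sum over the 6 of 1.13 to 10.8 FPKM against 3.05 to 17.1 FPKM. No listed marker was at 0 in all 8 libraries. In such bulk samples fewer cells of a type and less RNA per cell cannot be told apart. The part of any change in cell makeup in the subunit genes' values was not tested.

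Few subunit genes differed between the genotypes by more than the spread between libraries. Of the 79 tested, 2 fell in Med23-/- iOLs, Atp5g1 and Ndufv2, and 0 rose (limma, Benjamini-Hochberg adjusted p under 0.05 over all 12328 genes tested). Of all genes tested, 14.1% were called lower and 15.9% higher by the same rule. At an unadjusted p under 0.05, 7 members were lower and 0 higher, beside 2497 and 2599 of the 12328 genes tested. No member passed both the adjusted p and a fold change of 2, a size reached by 1.75% of all genes downward and 2.98% upward.

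The median log2 fold change of the 79 members was -0.05, beside -0.01 for all genes tested, and 59 members were below 0 and 20 above. Among the 12328 genes tested, 6375 were below 0 and 5953 above. The estimates ran from -0.46 (Ndufa13) to 0.17 (Cox6b2). All 79 estimates lay within 1.5-fold in either direction, against 84.3% of all genes tested, and 93.7% of members lay within 1.25-fold, against 66.9% of all genes. The spread between libraries of one genotype was taken as the residual SD on the log2(FPKM + 1) scale. It had a median of 0.16 for the members and of 0.16 for all genes tested, with upper quartiles of 0.24 and 0.22. The members' median level was 115 FPKM, against 12.8 FPKM for all genes tested, and the spread was not compared at like levels.

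The 95% confidence interval of the log2 fold change lay inside a 2-fold change for 78 of the 79 members, the exception being Ndufs5. It lay inside 1.5-fold for 69 members and inside 1.25-fold for 31. Differences of 2-fold thus lay outside the interval of nearly every member, and differences of 1.25-fold lay inside it for most.

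**Figure D1:**
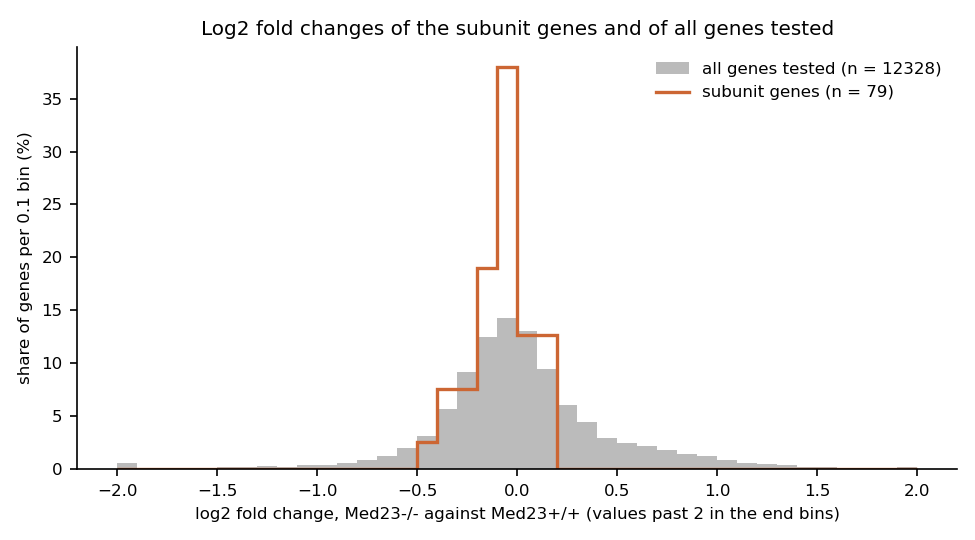
Share of genes (%, y axis) in each 0.1-wide bin of the log2 fold change of Med23-/- against Med23+/+ (x axis), for all 12328 genes tested (grey) and for the 79 subunit genes (line). The subunit genes lie between -0.46 and 0.17, inside the range of all genes.

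Both the sign and the size of this small median changed with the scaling of the libraries. With quantile normalization the median of the members was 0.04, the median of all genes was -0.02, and 0 members were lower and 1 higher (Ndufv1). With the sum of FPKM made equal in all libraries the median of the members was 0.02 and that of all genes 0.06, with 0 lower and 0 higher. With median-ratio scaling the median of the members was -0.05, with 2 lower. Of all genes tested, 13.8% were called lower and 14.3% higher with quantile normalization. The shares were 7.21% and 15.2% with equal sums, and 14.2% and 16.2% with median-ratio scaling. No direction is therefore given for the family as a whole, and a sign of a median below holds for the values as deposited.

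The medians of the 5 complexes lay close together. The median log2 fold change was -0.06 over the 37 tested members of complex I, -0.07 over the 4 of complex II, -0.05 over the 9 of complex III, -0.02 over the 12 of complex IV and -0.10 over the 17 of complex V. Members called were 1 of 37 in complex I (Ndufv2, lower) and 1 of 17 in complex V (Atp5g1, lower). Leaving out 1 library moved the median over -0.12 to -0.03 in complex I, -0.12 to -0.03 in complex II, -0.11 to 0.00 in complex III, -0.04 to 0.02 in complex IV and -0.13 to -0.08 in complex V. Quantile normalization and equal library sums turned the sign in complexes I to IV. In complexes II, III and IV limma called 0, and at an unadjusted p under 0.05 they held 1, 0 and 1 members, all lower.

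**Figure D2:**
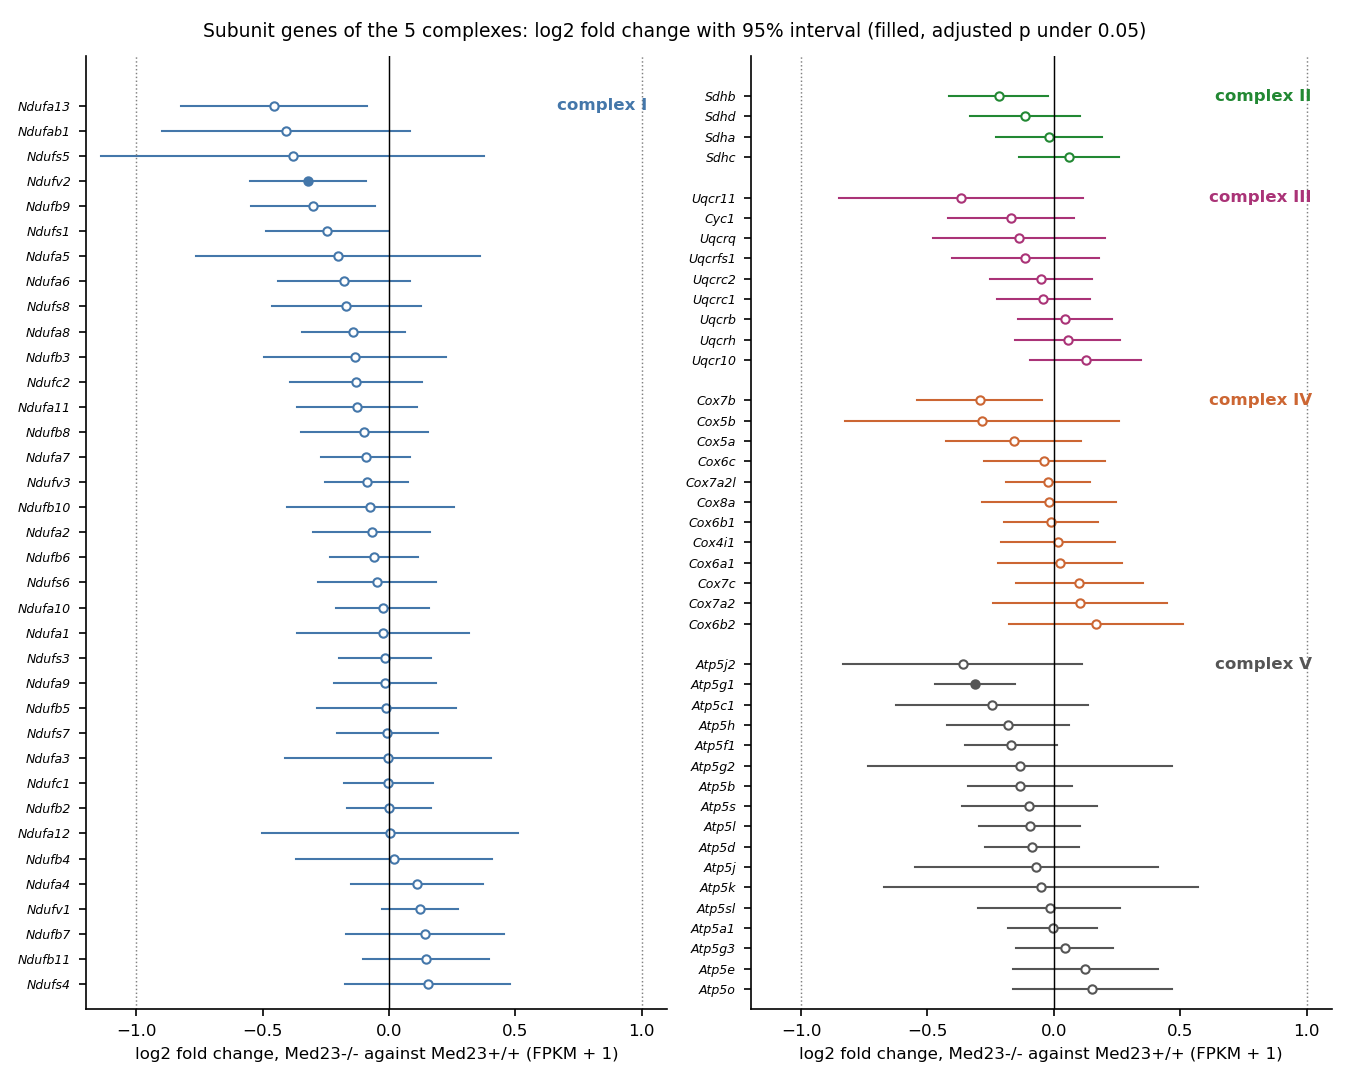
Log2 fold change of Med23-/- against Med23+/+ on the log2(FPKM + 1) scale (x axis) with its 95% interval for 78 of the 79 tested subunit genes, by complex, with dotted lines at 2-fold. Filled points, Ndufv2 and Atp5g1, have an adjusted p under 0.05, and only the interval of Ndufs5 crosses a dotted line.

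The mean of log2(FPKM + 1) over the members of each complex gave the same view by library. For complex I the Med23+/+ libraries 1 to 4 were at 6.54, 6.47, 6.62 and 6.55 and the Med23-/- libraries at 6.37, 6.35, 6.49 and 6.62. For complex V they were at 7.28, 7.27, 7.39 and 7.33 and at 7.19, 7.11, 7.19 and 7.40. Med23-/- replicates 1 and 2 were below all Med23+/+ libraries in both complexes, and replicate 3 was so in complex V. Med23-/- replicate 4 was instead slightly above the highest Med23+/+ library, replicate 3. The genotypes overlapped in every complex, and the difference of the means, -0.04 (complex IV) to -0.10 (complex V), was smaller than the SD of the Med23-/- libraries in complexes I, IV and V (0.13, 0.12 and 0.12). In complex III the difference of -0.07 was about equal to that SD (0.07), and in complex II it was -0.07 against an SD of 0.03.

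**Figure D3:**
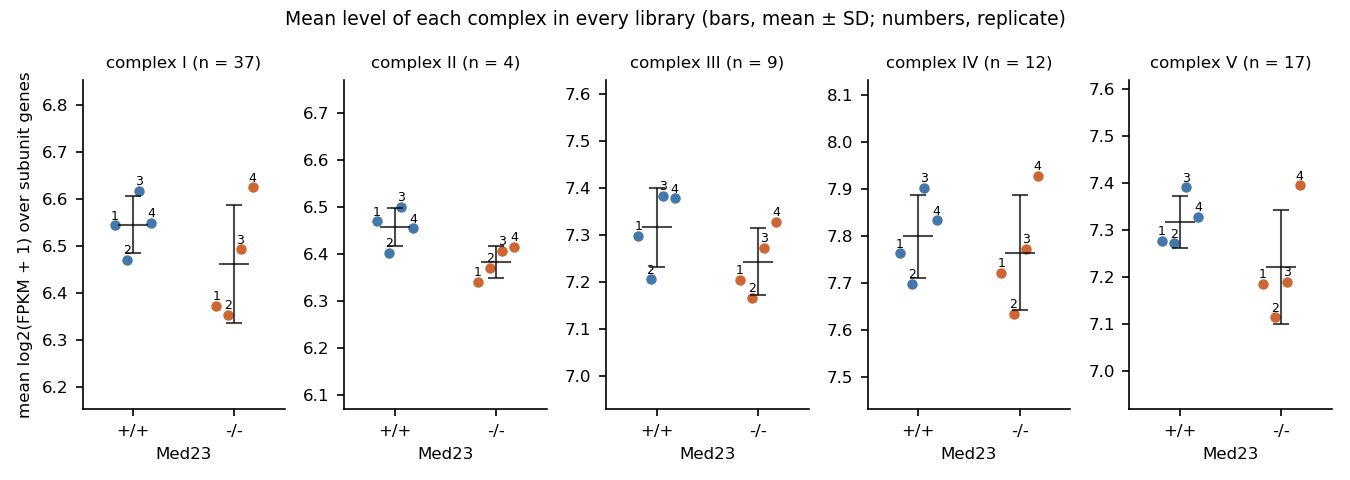
Mean log2(FPKM + 1) over the tested members of each complex (y axis, a 0.7 span in every panel) in each of the 8 libraries, with replicate numbers and the mean ± SD per genotype (n = 4). The genotypes overlap in all 5 panels, and Med23-/- replicate 4 is the highest Med23-/- library in each.

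The clearest single member was Atp5g1 (chr11:96068852-96075670, minus strand, mm10), 1 of 3 genes for the same mature c subunit, the protein whose ring turns in the membrane part of ATP synthase. Its level was 155, 141, 147 and 142 FPKM in Med23+/+ replicates 1 to 4 and 118, 111, 122 and 121 FPKM in Med23-/- replicates 1 to 4. No library of one genotype reached into the range of the other. The log2 fold change was -0.31 (SE 0.07, limma adjusted p = 0.00942), so Atp5g1 fell to 80.5% of its Med23+/+ mean. The call held when any 1 of the 8 libraries was left out, with adjusted p from 0.0132 to 0.0284, and was lost with quantile normalization and with equal library sums, where the highest adjusted p was 0.152.

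The other c subunit genes did not pass the test. Atp5g3 had 313, 260, 275 and 263 FPKM in Med23+/+ and 279, 277, 301 and 284 FPKM in Med23-/- libraries, which overlap (log2 fold change 0.04, SE 0.09, adjusted p = 0.749). Atp5g2 had 292, 322, 497 and 425 FPKM and 394, 229, 276 and 551 FPKM, a wide spread within both genotypes (log2 fold change -0.13, SE 0.27, adjusted p = 0.749). The difference between Atp5g1 and Atp5g3 within a library, on the log2(FPKM + 1) scale, was -0.92 ± 0.06 in Med23+/+ and -1.27 ± 0.05 in Med23-/- libraries (SD, n = 4), and the genotypes did not overlap. For Atp5g1 and Atp5g2 it was -1.36 ± 0.38 and -1.53 ± 0.52 (SD, n = 4), and they overlapped.

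These pairs were chosen after the values were seen, so their differences are given as a description with no test. Atp5g1 held 18.3% ± 2.05 of the summed FPKM of the 3 genes in Med23+/+ and 15.7% ± 2.44 in Med23-/- libraries (SD, n = 4), and the sum was 808 ± 86.1 against 766 ± 146 FPKM. The summed message for the c subunit thus differed by less than the spread between libraries.

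The second member called was Ndufv2 (chr17:66078638-66101559, minus strand, mm10), a core subunit of complex I that carries an iron-sulphur cluster and sits beside the NADH-binding subunit. Its level was 98.9, 100.4, 90.0 and 87.4 FPKM in Med23+/+ and 66.5, 82.9, 85.2 and 67.5 FPKM in Med23-/- libraries. The genotypes did not overlap, though Med23-/- replicates 2 and 3 came close to the lowest Med23+/+ library. The log2 fold change was -0.32 (SE 0.10, limma adjusted p = 0.0392).

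This call depended on single libraries and on the processing. It was lost in 3 of 10 other settings (all genes above 0, quantile normalization and equal library sums), with adjusted p up to 0.262. It remained without Med23-/- replicate 2 (adjusted p = 0.0359) and without Med23-/- replicate 3 (adjusted p = 0.0257). It was lost without any 1 of the other 6, with adjusted p of 0.0904, 0.0937, 0.0641 and 0.0534 without Med23+/+ replicates 1 to 4 and of 0.103 and 0.0844 without Med23-/- replicates 1 and 4 (limma).

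Its partner Ndufv1, which binds NADH and passes the electrons on, had 57.2, 51.9, 55.9 and 52.1 FPKM in Med23+/+ and 57.6, 59.3, 61.6 and 58.2 FPKM in Med23-/- libraries. Here each Med23-/- library was above each Med23+/+ library, by a small margin (log2 fold change 0.12, SE 0.07, adjusted p = 0.199). Within a library Ndufv2 stood above Ndufv1 by 0.78 ± 0.11 in Med23+/+ and by 0.34 ± 0.15 in Med23-/- on the log2(FPKM + 1) scale (SD, n = 4). Ndufv1 was picked after its values were seen, and since the genotypes separate in opposite directions for these genes, this difference is given with no test.

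**Figure D4:**
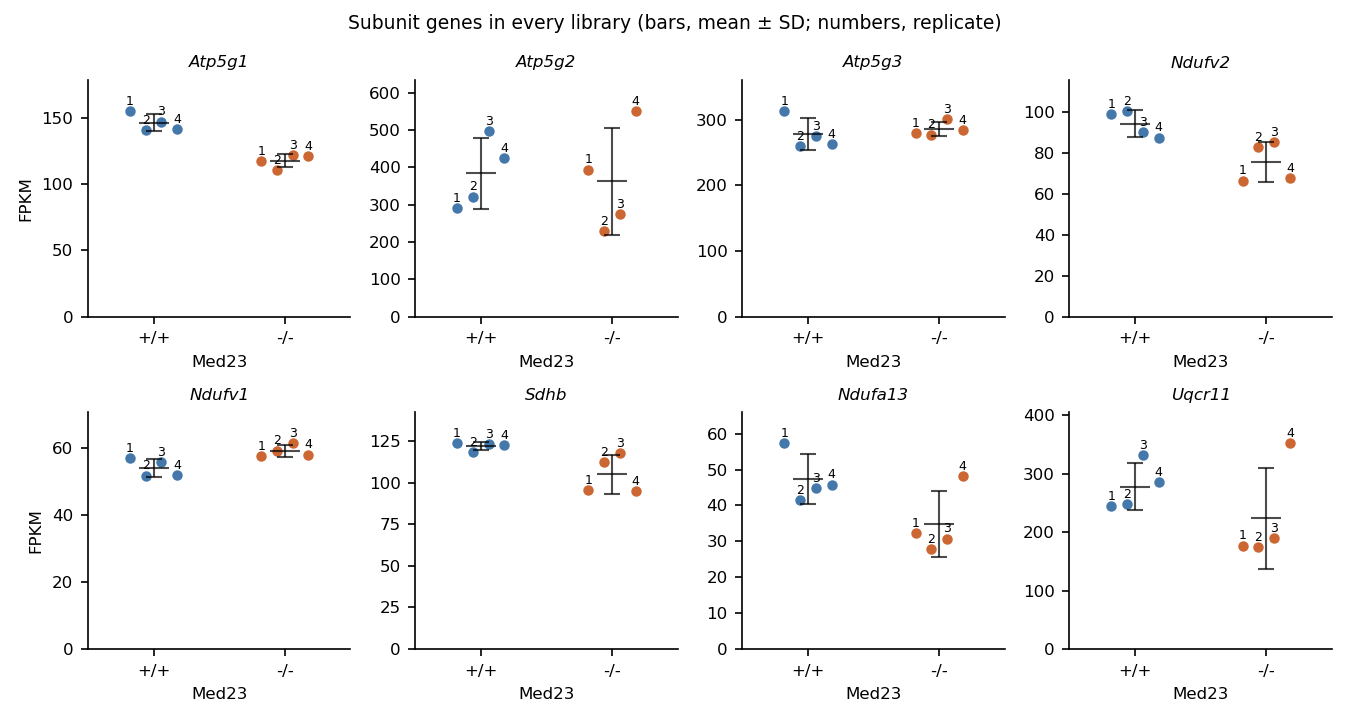
FPKM (y axis, from 0) of 8 subunit genes in each library, with replicate numbers and the mean ± SD per genotype (n = 4). Atp5g1, Ndufv2 and Sdhb are lower in every Med23-/- library and Ndufv1 is higher, while Uqcr11 and Ndufa13 are low in Med23-/- replicates 1 to 3 only.

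The promoter windows of these members are shown because they include both called genes and the paralogues or partner that did not pass the test. Each line gives, 5′ to 3′ on the gene's strand, the 250 bases before and the first 10 bases from the RefSeq start (GRCm38.p6), with motif matches in capitals. The windows are chr11:96075622-96075881 (Atp5g1), chr15:102671038-102671297 (Atp5g2), chr2:73911317-73911576 (Atp5g3), chr17:66101550-66101809 (Ndufv2) and chr19:4012746-4013005 (Ndufv1), all on the minus strand.
Atp5g1: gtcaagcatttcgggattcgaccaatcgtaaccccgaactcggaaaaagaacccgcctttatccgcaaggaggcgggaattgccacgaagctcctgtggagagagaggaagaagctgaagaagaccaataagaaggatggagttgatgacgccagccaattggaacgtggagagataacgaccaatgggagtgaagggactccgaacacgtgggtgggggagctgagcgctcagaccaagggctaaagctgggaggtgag
Atp5g2: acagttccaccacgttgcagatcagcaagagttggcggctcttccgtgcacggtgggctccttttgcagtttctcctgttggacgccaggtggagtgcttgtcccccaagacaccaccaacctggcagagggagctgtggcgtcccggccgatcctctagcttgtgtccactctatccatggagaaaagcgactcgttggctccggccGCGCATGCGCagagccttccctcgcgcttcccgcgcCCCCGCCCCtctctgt
Atp5g3: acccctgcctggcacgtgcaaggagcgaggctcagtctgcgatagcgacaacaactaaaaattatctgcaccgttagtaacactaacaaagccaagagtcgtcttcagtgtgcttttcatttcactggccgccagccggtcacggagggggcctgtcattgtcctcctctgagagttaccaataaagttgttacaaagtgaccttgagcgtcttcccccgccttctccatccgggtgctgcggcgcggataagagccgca
Ndufv2: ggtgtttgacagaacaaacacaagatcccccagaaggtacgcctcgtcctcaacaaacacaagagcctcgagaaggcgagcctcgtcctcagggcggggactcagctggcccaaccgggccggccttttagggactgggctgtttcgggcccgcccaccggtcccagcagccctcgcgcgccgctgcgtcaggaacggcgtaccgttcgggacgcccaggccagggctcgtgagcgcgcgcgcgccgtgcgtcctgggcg
Ndufv1: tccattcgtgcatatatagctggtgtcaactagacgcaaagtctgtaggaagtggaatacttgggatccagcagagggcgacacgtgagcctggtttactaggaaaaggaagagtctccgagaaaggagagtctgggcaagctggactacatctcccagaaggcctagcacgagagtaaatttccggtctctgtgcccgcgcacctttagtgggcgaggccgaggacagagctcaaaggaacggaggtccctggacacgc
The motifs searched, on both strands, were the GC box GGGGCGGGG bound by Sp1, the NRF1 core GCGCATGC, the ETS core CCGGAAG and the YY1 core AAGATGGC, none of which contains another. In Atp5g2 the capitals mark an NRF1 core matched on both strands at overlapping positions, beginning 42 and 40 bases before the start, and a GC box on the opposite strand that begins 6 bases before the start. In the other 4 printed stretches none of the 4 motifs matched.

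A window of 300 bases (250 before and 50 after the start) was found for 65 of the 79 tested members. The GC box was present in 10 of these (15.4%), against 22.7% of the windows of the other genes tested and 11.6% of all windows of the table. The NRF1 core was present in 10 (15.4%, against 5.7% and 2.8%), the ETS core in 15 (23.1%, against 18.7% and 9.1%) and the YY1 core in 9 (13.8%, against 5.0% and 2.9%). The median log2 fold change of members with a match was -0.13 for the GC box, -0.13 for NRF1, -0.05 for ETS and -0.02 for YY1, and -0.05, -0.02, -0.06 and -0.07 for the members without one. These differences were not tested, the groups are small, and some members, such as Atp5g2 and Sdhb, are in both the GC box and NRF1 groups. No member with a match was called, and neither called gene had one. Such matches describe the letters of a window and not the binding of a factor.

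Complex I is built around 7 nuclear-encoded core subunits, and the other members are accessory. The core members had a median log2 fold change of -0.02 with Ndufv2 as the 1 call, and the 30 tested accessory members a median of -0.06 with 0 calls (limma; at an unadjusted p under 0.05, 2 lower and 0 higher). The lowest estimate of all members was that of Ndufa13, an accessory subunit also known as GRIM-19. It had 57.4, 41.5, 44.9 and 45.8 FPKM in Med23+/+ and 32.4, 27.9, 30.8 and 48.3 FPKM in Med23-/- libraries (log2 fold change -0.46, SE 0.16, adjusted p = 0.0621). Med23-/- replicates 1 to 3 were below all Med23+/+ libraries and replicate 4 was among them, and without replicate 4 Ndufa13 passed (log2 fold change -0.62, adjusted p = 0.0045). Its exons overlap those of Tssk6 in the annotation.

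Other complex I members at the low end did not pass. Ndufb9 had 132 to 154 FPKM (median 145) in Med23+/+ and 96.3 to 137 FPKM (median 118) in Med23-/- libraries (log2 fold change -0.30, SE 0.11, adjusted p = 0.0643) and passed without Med23-/- replicate 3 (-0.38, adjusted p = 0.0287). Ndufab1, the mitochondrial acyl carrier protein, had 45.4 to 84.2 FPKM against 33.2 to 59.8 FPKM (log2 fold change -0.41, SE 0.22, adjusted p = 0.194). Ndufs5 had 53.3 to 128 FPKM against 39.6 to 124 FPKM, the widest spread of all members (log2 fold change -0.38, SE 0.34, adjusted p = 0.436).

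At the high end of complex I stood Ndufs4 (log2 fold change 0.15, SE 0.15, adjusted p = 0.469), Ndufb11 (0.15, SE 0.11, adjusted p = 0.358), Ndufb7 (0.14, SE 0.14, adjusted p = 0.483) and Ndufa4 (0.11, SE 0.12, adjusted p = 0.509). With replicates 1 and 2 alone the sign for Ndufb7, Ndufs4 and Ndufa4 was the opposite. The most abundant members of complex I by FPKM were Ndufa3 (401 FPKM over all libraries), Ndufa4 (309) and Ndufa7 (194), and Ndufa3 and Ndufa7 had log2 fold changes of -0.00 (SE 0.18) and -0.09 (SE 0.08). Ndufa4, named for complex I, belongs to complex IV in many accounts, and moving it there gave medians of -0.06 for complex I and -0.01 for complex IV.

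Complex II, succinate dehydrogenase, is the only complex shared with the citric acid cycle. Sdhb, its iron-sulphur subunit, had 124, 118, 123 and 123 FPKM in Med23+/+ and 95.5, 112, 118 and 94.8 FPKM in Med23-/- libraries. The genotypes did not overlap, but Med23-/- replicate 3 came within 1 FPKM of Med23+/+ replicate 2, and the log2 fold change of -0.22 (SE 0.09) did not pass (adjusted p = 0.0891). It passed only without Med23-/- replicate 3 (-0.28, adjusted p = 0.0419). The membrane anchors Sdhc and Sdhd and the flavoprotein Sdha had log2 fold changes of 0.06 (SE 0.09), -0.12 (SE 0.10) and -0.02 (SE 0.09), with adjusted p of 0.65, 0.411 and 0.902.

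In complex III no member passed (limma; 0 of 9 at an unadjusted p under 0.05). Cyc1, cytochrome c1, had 82.5 to 106 FPKM in Med23+/+ and 77.8 to 102 FPKM in Med23-/- libraries (log2 fold change -0.17, SE 0.11, adjusted p = 0.281). Uqcr11, a small subunit, had 245, 248, 332 and 285 FPKM and 177, 175, 190 and 352 FPKM. Med23-/- replicates 1 to 3 were below all Med23+/+ libraries and replicate 4 above them, so that the log2 fold change was -0.37 (SE 0.22, adjusted p = 0.231) with it and -0.61 (adjusted p = 0.00507) without it. Uqcr10 had a log2 fold change of 0.13 (SE 0.10, adjusted p = 0.373) and Uqcrq of -0.14 (SE 0.15, adjusted p = 0.539).

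Complex IV, cytochrome c oxidase, has subunits with tissue isoforms, and the libraries held the widely expressed ones. Cox6b1 (590 FPKM over all libraries), Cox8a (588), Cox6a1 (579) and Cox4i1 (511) were among the highest members of any complex on the per-length FPKM scale. Their log2 fold changes were -0.01 (SE 0.08), -0.02 (SE 0.12), 0.02 (SE 0.11) and 0.02 (SE 0.10). Cox7a2 had 104 FPKM over all libraries and a log2 fold change of 0.10 (SE 0.15, adjusted p = 0.655), and Cox7a2l, which joins complexes III and IV in supercomplexes and is no subunit of the monomer, had a log2 fold change of -0.02 (SE 0.07, adjusted p = 0.839).

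The alternative isoforms were nearly silent. Cox4i2, the lung isoform that responds to oxygen, had a mean of 0.0919 FPKM, and the heart and muscle isoforms Cox6a2, Cox7a1 and Cox8b had means of 0.0360, 0.800 and 0.111 FPKM. Cox7b2 and Cox8c, described mainly in testis, were above 0 in 1 and 0 libraries, and Ndufa4l2 had a mean of 0.178 FPKM. These were the 7 members below 1 FPKM, and no genotype comparison was made for them. The exception among the isoforms was Cox6b2, known from testis, which was present in all 8 libraries at 8.96 to 11.8 FPKM in Med23+/+ and 9.37 to 16.0 FPKM in Med23-/- (log2 fold change 0.17, SE 0.15, adjusted p = 0.453), 1.81% of the summed FPKM of Cox6b1 and Cox6b2.

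The lowest estimates in complex IV belonged to Cox7b and Cox5b. Cox7b had 107, 103, 123 and 101 FPKM in Med23+/+ and 80.4, 83.9, 109 and 82.5 FPKM in Med23-/- libraries, with Med23-/- replicate 3 among the Med23+/+ values (log2 fold change -0.29, SE 0.11, adjusted p = 0.0733, and -0.39, adjusted p = 0.013, without that library). Cox5b had 185 to 259 FPKM and 122 to 297 FPKM (-0.28, SE 0.24, adjusted p = 0.415), and without Med23-/- replicate 4 it passed (-0.55, adjusted p = 0.0178). Cox5a had a log2 fold change of -0.16 (SE 0.12, adjusted p = 0.353).

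In complex V none of the 5 members of the F1 part, the catalytic head with its central stalk, passed the test (limma, 0 also at an unadjusted p under 0.05). Atp5b, the catalytic beta subunit and with 558 FPKM over all libraries the highest of the complex, had a log2 fold change of -0.13 (SE 0.09, adjusted p = 0.313). Atp5a1, the alpha subunit, had 377, 387, 414 and 380 FPKM in Med23+/+ and 364, 399, 397 and 395 FPKM in Med23-/- libraries, with overlapping genotypes (log2 fold change -0.00, 95% interval from -0.18 to 0.17). Atp5e, of the central stalk, had 0.12 (SE 0.13, adjusted p = 0.505). Over the 5 F1 members the median was -0.09.

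The peripheral stalk and membrane members were more uneven. Atp5f1, of the peripheral stalk, had 124, 105, 98.6 and 105 FPKM against 97.1, 94.2, 95.2 and 96.8 FPKM, with no overlap (log2 fold change -0.17, SE 0.08, adjusted p = 0.148). Atp5o, which joins the stalk to the head, had a log2 fold change of 0.15 (SE 0.14, adjusted p = 0.454). Atp5j2, of the membrane part, had 247, 243, 323 and 246 FPKM against 166, 163, 197 and 329 FPKM, the pattern of Uqcr11, and its log2 fold change was -0.36 (SE 0.21, adjusted p = 0.232) with all libraries and -0.59 (adjusted p = 0.00799) without Med23-/- replicate 4.

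Over all members the libraries of the genotypes did not overlap in 4 downward cases (Atp5g1, Ndufv2, Sdhb and Atp5f1) and 1 upward case (Ndufv1). Of all genes tested 15.3% did not overlap downward and 16.3% upward, so both counts were below the background of the series.

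Within a genotype many subunit genes moved together from library to library. The first principal component of the members' departures from their genotype mean held 66.8% of that variance and the second 12.5%. Departures were not scaled by gene, so the most variable members weigh most, and no such share is given for other genes. In Med23-/- replicate 4, 51 of the 79 members stood above their genotype mean. Their median departure in that library was 0.07 over all 79, against 0.02 for all genes tested. On the first component, Med23-/- replicate 4 (loading 0.73) and Med23+/+ replicate 3 (0.31) lay at one end. Med23-/- replicate 2 (-0.48) and Med23+/+ replicate 1 (-0.26) lay at the other. The 10 members highest on this component were Ndufs5, Atp5k, Atp5g2, Cox5b, Atp5j, Ndufa5, Ndufa12, Uqcr11, Atp5j2 and Ndufb4, from complexes I, III, IV and V. They were named after their values were seen. Their mean departure on the log2 scale was 0.71 in Med23-/- replicate 4, 0.29 in Med23+/+ replicate 3, -0.47 in Med23-/- replicate 2 and -0.29 in Med23+/+ replicate 1.

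Other members varied little or moved the opposite way. The residual SD was 0.06 for Ndufv1, Atp5a1, Atp5g1 and Cox6b1, against 0.60 for Ndufs5, 0.49 for Atp5k and 0.47 for Atp5g2. The 10 members lowest on the component, among them Ndufb5, Uqcrfs1, Atp5e and Atp5h, had a mean departure of -0.23 in Med23-/- replicate 4 and of 0.14 in Med23-/- replicate 2. Members of 1 complex could thus go opposite ways in the same library: in complex V, Atp5k stood 0.96 above its genotype mean in Med23-/- replicate 4 and Atp5h 0.20 below it.

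Med23-/- replicate 4 and Med23+/+ replicate 3 also had the largest sums of FPKM over all genes, 789961 and 844451, against 650480 to 730718 in the other 6 libraries. Their median-ratio scaling factors were 1.008 and 1.036, against 0.978 to 1.010 in the other 6, so Med23-/- replicate 4 did not stand apart by this measure. Across the 79 members the Spearman rho of the position on the component with transcript length was -0.22, as a description over genes that share the same 8 libraries. The members' transcripts are short, with a median of 875 nt against 3145 nt for all genes tested with a known length. The part of library preparation and of length in this pattern was not tested.

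**Figure D5:**
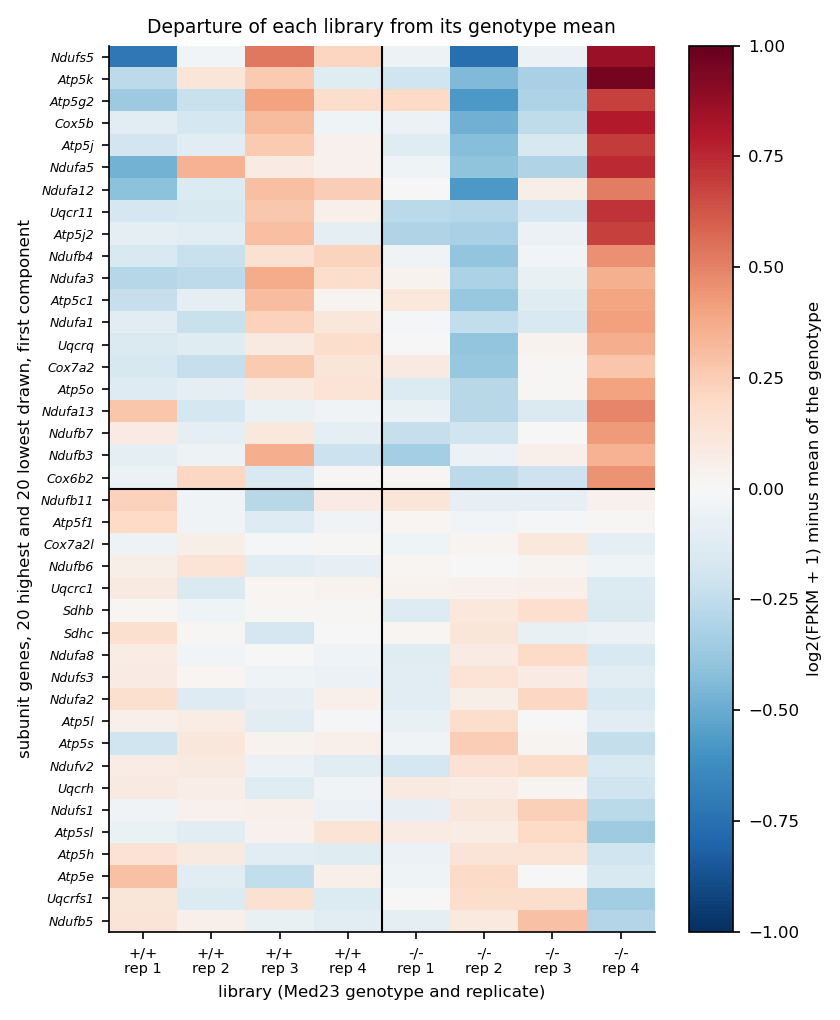
Departure of log2(FPKM + 1) from the mean of the genotype (colour) in each library (x axis) for the 20 highest and the 20 lowest of 78 members on the first component of such departures (y axis). All upper members are high in Med23-/- replicate 4, and most are high in Med23+/+ replicate 3 and low in Med23-/- replicate 2, while the lower members stay nearer 0 or go the opposite way.

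Leaving out these libraries bears on the counts. Without Med23-/- replicate 4, 5 members were called lower (Atp5g1, Atp5j2, Cox5b, Ndufa13 and Uqcr11) and the median was -0.09. Without Med23-/- replicate 3, 6 were called lower (Atp5g1, Cox7b, Ndufb9, Ndufs1, Ndufv2 and Sdhb), and without each of Med23+/+ replicates 1 to 4 or Med23-/- replicate 1, only Atp5g1 was. Without both Med23+/+ replicate 3 and Med23-/- replicate 4, 5 members were lower, and 72 of 79 estimates still lay within 1.25-fold. No member was called higher in any of these fits (limma), and Atp5g1 was the member called in all of them. Of all genes tested, 13.5% were called lower without Med23-/- replicate 4, 12.8% without Med23-/- replicate 3 and 10.1% without both named libraries. With 1 library left out, 9.95% to 13.5% of all genes tested were lower and 12.4% to 15.1% higher.

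Genes that serve the complexes without being subunits were compared by lists. Of 48 assembly factors 6 fell and 1 rose, beside 14.1% and 15.9% of all genes tested, with a median log2 fold change of -0.12. The count that fell was 3 without Med23+/+ replicate 1 or Med23-/- replicate 2, and 2 without Med23+/+ replicate 3 or 4 or Med23-/- replicate 1. It was 4 without Med23+/+ replicate 2 and 5 without Med23-/- replicate 3 or 4. Ecsit, which helps to build complex I, fell with no overlap from 16.8 to 17.7 FPKM in Med23+/+ to 11.9 to 12.8 FPKM in Med23-/- (log2 fold change -0.45, SE 0.07, adjusted p = 0.000919). Atpaf1, a chaperone of the ATP synthase head, fell by 0.38 on the log2 scale (SE 0.10, adjusted p = 0.0168, and 0.0514 without Med23+/+ replicate 3). Cox14, an assembly factor of complex IV, rose by 0.35 (SE 0.10, adjusted p = 0.0211, but 0.0577 without Med23+/+ replicate 3 and 0.0622 with sample weights).

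Of the other assembly factors called, Cox17, Lrpprc and Taco1 were less steady, and other fits of Coa4 are not given here. Cox17, a copper chaperone, fell by 0.49 (SE 0.16, adjusted p = 0.0398), and Lrpprc, Taco1 and Coa4 fell by 0.23 to 0.28. The calls of Lrpprc, Taco1 and Cox17 were lost without 5 or 6 of the 8 libraries, with adjusted p from 0.0507 to 0.107. With equal library sums, among other settings, these 3 calls were lost as well, and the highest adjusted p over the settings was 0.349, 0.247 and 0.0844.

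Of 77 mitochondrial ribosomal protein genes, which make the machinery that translates the mitochondrial DNA's own subunits, 15 fell and 1 rose (median -0.15). Mrpl19 fell from 9.09 to 9.80 FPKM in Med23+/+ to 6.28 to 7.06 FPKM in Med23-/- (log2 fold change -0.42, SE 0.07, adjusted p = 0.00238), and Mrpl54 fell by 0.64 (SE 0.15, adjusted p = 0.00899). Mrpl14 rose by 0.46 (SE 0.12, adjusted p = 0.0143). Mrpl36, which fell by 0.55 (SE 0.11, adjusted p = 0.00583), shares exon sequence with the subunit gene Ndufs6, whose log2 fold change was -0.05 (SE 0.10). The share that fell, 15 of 77, stands beside 14.1% of all genes tested and 2 of 79 subunit genes. The 1 gene that rose stands beside 15.9% of all genes tested and 0 of 79 subunit genes. The difference between the lists was not tested. The count that fell was 8 without Med23+/+ replicate 3 or Med23-/- replicate 2, and 9 without Med23+/+ replicate 1 or 4 or Med23-/- replicate 1. It was 13 without Med23+/+ replicate 2, 10 without Med23-/- replicate 3 and 19 without Med23-/- replicate 4.

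Of 18 genes of the citric acid cycle and pyruvate dehydrogenase, which feed electrons to the chain, 4 fell and 0 rose (limma; at an unadjusted p under 0.05, 7 lower and 0 higher), with 17 estimates below 0 and a median of -0.21. Among the 12328 genes tested 14.1% fell and 15.9% rose, and 6375 had an estimate below 0. At an unadjusted p under 0.05, 2497 of them were lower and 2599 higher. Pdhb, a subunit of pyruvate dehydrogenase, had 70.7, 71.3, 84.3 and 71.9 FPKM in Med23+/+ and 58.7, 56.0, 66.5 and 53.6 FPKM in Med23-/- libraries, with no overlap (log2 fold change -0.34, SE 0.09, adjusted p = 0.0199). Its call was lost without Med23+/+ replicate 3 (adjusted p = 0.0513), with quantile normalization and with equal library sums (up to 0.141). Idh2, Mdh2 and Dlat fell by 0.29, 0.29 and 0.26, with adjusted p of 0.0353, 0.0425 and 0.0481. The count was 0 without Med23+/+ replicate 3, 1 without Med23+/+ replicate 4 or Med23-/- replicate 1 or 2, and 2 without Med23+/+ replicate 1. It was 3 without Med23+/+ replicate 2 or Med23-/- replicate 4, and 5 without Med23-/- replicate 3. The calls of Idh2, Mdh2 and Dlat were lost without 6, 6 and 7 of the 8 libraries, with adjusted p from 0.0587 to 0.119. Over 10 other settings they were called in 8, 7 and 3, with adjusted p up to 0.159, 0.181 and 0.302.

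Of 10 tested genes for cytochrome c and coenzyme Q synthesis, the mobile carriers between the complexes, 1 fell and 1 rose. These counts stand beside 14.1% and 15.9% of all genes tested. Cycs, cytochrome c itself, had 28.1, 27.5, 28.5 and 27.7 FPKM in Med23+/+ and 15.6, 15.0, 19.2 and 28.5 FPKM in Med23-/- libraries. The first 3 Med23-/- libraries were far below the Med23+/+ values and replicate 4 was level with them (log2 fold change -0.54, SE 0.17, adjusted p = 0.0381). Without Med23-/- replicate 4 the log2 fold change was -0.73 (adjusted p = 0.000775), and without any 1 of the other libraries the call was lost (adjusted p from 0.071 to 0.106), as it was in 2 of 10 other settings (up to 0.0637). Coq6 rose by 0.31 (SE 0.09, adjusted p = 0.0258), a call lost without any 1 of Med23+/+ replicates 2 and 3 and Med23-/- replicates 1 and 2 (adjusted p from 0.0629 to 0.0679) and in 2 of 10 other settings (up to 0.0659).

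Of 7 carriers and inhibitors of ATP synthase in the inner and outer membranes, Vdac2, a channel of the outer membrane, fell by 0.28 (SE 0.08, adjusted p = 0.023), and 0 rose (limma; 0 also at an unadjusted p under 0.05). Its call was lost without any 1 of Med23+/+ replicates 1 and 2 and Med23-/- replicates 1 and 2 (adjusted p from 0.0515 to 0.0607), and with quantile normalization and equal library sums (up to 0.242). The adenine nucleotide carriers Slc25a4 and Slc25a5 had log2 fold changes of -0.06 and 0.14, and neither passed. The counts of 1 lower and 0 higher of these 7 genes stand beside 14.1% and 15.9% of all genes tested.

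Of 15 tested regulators of mitochondrial biogenesis 2 rose and 1 fell, beside 15.9% and 14.1% of all genes tested. Ppargc1a, the coactivator PGC-1alpha, had 1.30, 0.674, 0.626 and 0.763 FPKM in Med23+/+ and 1.69, 1.38, 2.37 and 2.11 FPKM in Med23-/- libraries, low in both but with no overlap (log2 fold change 0.65, SE 0.16, adjusted p = 0.0138). Esrrg, a nuclear receptor that works with it, rose from 1.35 to 2.05 FPKM in Med23+/+ to 2.81 to 5.92 FPKM in Med23-/- (log2 fold change 1.03, SE 0.18, adjusted p = 0.00228). Pprc1, the related coactivator PRC, fell by 0.44 (SE 0.11, adjusted p = 0.013, but 0.0717 with equal library sums). Nrf1, Gabpa, Yy1 and Tfam, factors of subunit gene promoters and of mitochondrial DNA, had log2 fold changes of 0.26, -0.01, -0.16 and 0.03, none of which passed. On the log2(FPKM + 1) scale the changes of Ppargc1a and Esrrg are understated, since their levels are near 1 FPKM.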

How the data were processed

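RNA-seq of 4 Med23+/+ and 4 Med23-/- iOL libraries was used. The authors used FastQC for quality, Cutadapt for trimming, Tophat2 for alignment (mm10) and cuffdiff (-b -u) for expression. They deposited FPKM values per library, and the deposited table also holds cuffdiff's genotype means, fold changes and tests, which were not used. Tool versions, the gene annotation and the strandedness of counting are not given in the sources used here, and the depth of each library is unknown. All 8 library columns were used.

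Tests used log2(FPKM + 1) of the deposited values, unscaled. The 12328 genes whose mean reached 1 FPKM were tested with limma 3.58.1 in R 4.3.3 (mean-variance trend, no block), with Benjamini-Hochberg adjustment over all of them and a threshold of 0.05. Fold changes on this scale understate the change of low genes. Named members were, per complex, the 3 highest and the 3 with the smallest adjusted p, the 5 highest and 5 lowest log2 fold changes, all of complex II, the isoforms and members below 1 FPKM, and from other lists at most 6 called genes each; mitochondrial ribosomal genes and others outside this rule were named after their values were seen. The members and lists were chosen with earlier results of these data known. Gene positions, transcript lengths (the principal or longest basic transcript) and exon overlaps come from GENCODE vM21 and promoters from RefSeq (GRCm38.p6). All 86 members matched, 1 of them by a synonym. Of the 79 tested members, 22 overlap exons of another gene, and their reads could be shared. Alternatives were another pseudocount (0.1), other filters (all genes above 0, or a minimum mean of 5 FPKM), quantile, median-ratio and sum scaling, no trend, sample weights, a replicate block, a covariate that sets replicates 1 and 2 apart from 3 and 4, and each library left out in turn. Replicates 1 and 2 alone, 3 and 4 alone, and 6 libraries without Med23+/+ replicate 3 and Med23-/- replicate 4 were chosen after seeing the data. The fit was tested on simulated data. Tables were made with Python 3.11.15, pandas 2.3.3 and scipy 1.17.1. The counts and medians cover all members, and 1 tested member is not reported by name here.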

Additional observations from a re-analysis of the deposited data

Results flagged for a closer look

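In 4 of 76 groups of 4 libraries, over the 38 named members, 1 library stood apart from the other 3 by Dixon's ratio on the log2 scale. Chance flags about 1 in 20 groups. Uqcr11 was at 352.1 FPKM in Med23-/- replicate 4, against 174.5 to 190.2 FPKM in the other Med23-/- libraries. Atp5j2 was at 323.3 FPKM in Med23+/+ replicate 3, against 243.2 to 246.7 FPKM. Cox7b was at 108.6 FPKM in Med23-/- replicate 3, against 80.4 to 83.9 FPKM. Atp5a1 was at 363.8 FPKM in Med23-/- replicate 1, against 394.7 to 399.2 FPKM.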

How the results depend on the processing

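The number of members called lower was 2 and called higher 0. Lower calls numbered 1 with all genes above 0, 0 with quantile normalization, 0 with equal library sums, 5 with sample weights, 0 with a fold change over 2 as well, 0 with replicates 3 and 4 alone, 5 with 6 libraries, and 1 to 6 when 1 library was left out. With replicates 1 and 2 alone the 2 members lower were Atp5j2 and Uqcr11. Higher calls numbered 1 with quantile normalization (Ndufv1) and 0 in each other fit. With replicate numbers as a replicate block 4 members were lower (Atp5g1, Cox7b, Ndufa13 and Ndufv2) and 0 higher. Of all genes tested, 8.72% were lower with all genes above 0, 13.8% with quantile normalization and 7.21% with equal library sums. That share was 16.3% with sample weights, 14.9% with the replicate block and 10.1% with 6 libraries. It was 5.87% with replicates 1 and 2 alone, 4.59% with replicates 3 and 4 alone, and 9.95% to 13.5% when 1 library was left out. Same-numbered libraries did not deviate together in each pair (correlations over 12328 genes of 0.13, -0.096, -0.026 and 0.159), so the numbers were not taken as pairs.

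Quantile normalization moved the median log2 fold change to 0.0378 for all members, 0.0719 for complex I, 0.0497 for complex II, 0.0622 for complex III and 0.0905 for complex IV, and equal library sums moved it to 0.0176, 0.0108, 0.0027, 0.0176 and 0.0558. Complex V stayed below 0 (-0.0436 and -0.0255). The cause was not tested. When 1 library was left out, the median ran from -0.0887 to -0.0304 for all members, -0.123 to -0.0298 for complex I, -0.121 to -0.026 for complex II, -0.11 to 0.0025 for complex III and -0.0394 to 0.0153 for complex IV. The estimate changed sign for 27 of 79 members with quantile normalization, 23 with equal library sums, 21 with replicates 1 and 2 alone, 15 with 6 libraries and 6 to 14 when 1 library was left out. Among named members, those that changed sign by at least the SE of their log2 fold change were, under quantile normalization, Atp5a1 (0.0759), Cox6b1 (0.0819), Cox7a2l (0.0794) and Sdha (0.0995). With replicates 1 and 2 alone they were Cox6b2 (-0.026), Ndufa4 (-0.134), Ndufa7 (0.0021), Ndufb7 (-0.068) and Ndufs4 (-0.122), and with 6 libraries Cox6b2 (-0.0339). Ndufb7 ran from -0.0001 to 0.22 when 1 library was left out. None of these 9 genes passed the test in the fits named. Leaving aside the tested members that are not subunits (Cox7a2l, Atp5s and Atp5sl) changed neither count. Read depth is unknown, and the number of libraries limits the intervals, which lay inside 1.25-fold for 31 of 79 members.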
